A study of Mus musculus with 15 samples.

Results

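The genes described here encode parts of the motile cilium and its axoneme, or proteins that assemble or regulate them. They were taken by symbol: the axonemal dynein heavy chains (Dnah), radial spoke proteins (Rsph), cilia and flagella associated proteins (Cfap), tektins (Tekt), axonemal dynein intermediate and light chains (Dnaic1, Dnaic2, Dnali1), nexin-dynein regulatory complex proteins (Drc), dynein arm assembly factors (Dnaaf), and Foxj1, Ccdc39 and Ccdc40. The rule found 52 genes among the 24421 in the count tables, and 48 of them had enough counts to be tested. RNA was sequenced from the cerebellum of FVB mice, with 5 libraries for each of 3 genotypes: wild type (FVB), Pcp2-ATXN1[82Q], and Pcp2-ATXN1[82Q]V591A;S602D. ATXN1 is the protein whose expanded glutamine tract causes spinocerebellar ataxia type 1. Both transgenes carry that tract and use the promoter of Pcp2, a gene of Purkinje neurons, so neither was targeted to cells with motile cilia. The substitutions V591A and S602D weaken binding to the repressor CIC, and that genotype is called the substituted transgene below. The labels give no age. Nor do they say whether the 5 libraries of a genotype came from different mice, and the spread behind the p-values may therefore be technical. Transgene RNA was not quantified here, so the dose of the 2 transgenes in Purkinje cells cannot be set side by side.

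Motile cilia beat because dynein motors slide the doublet microtubules of the axoneme past each other. Outer dynein arms set the beat frequency, inner dynein arms shape the waveform, and radial spokes and the nexin-dynein regulatory complex carry signals between the central pair and the motors. In the brain such cilia stand on ependymal cells, which line the ventricles, and in part on the epithelium of the choroid plexus, which makes cerebrospinal fluid. FOXJ1 is the transcription factor that switches on this gene program. Neurons and astrocytes carry a primary cilium, which lacks dynein arms and does not beat.

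Counts on genes ran from 36467948 to 42818401 per library. Levels are given in CPM, the count scaled to a common library size with TMM normalisation. The labelled tissue was checked with its granule cell gene Gabra6 (1280 ± 116 CPM in wild type; SD, n = 5), and all 10 granule cell and all 10 Purkinje cell markers were above 0 in every library. Genes of tissues that border the cerebellum varied between libraries. The choroid plexus gene Ttr lay between 4.26 and 45.4 CPM in wild-type replicates 2, 3 and 4, ATXN1[82Q] replicates 1 and 3 and substituted replicates 1 and 5, and between 1090 and 4870 CPM in the other 8 libraries. Of 11 ependymal genes outside the axoneme, 8 were higher in ATXN1[82Q] than in wild type, against 16.6% of all genes tested, and none was at 0 in any library. The other 3 did not pass: Mlf1 had a log2 fold change of 1.07, Hdc -0.42 and S100a6 -0.22, the last 2 with an unadjusted p under 0.05. Their summed level was at least 326 CPM in each ATXN1[82Q] library, 176 to 244 CPM in wild type and 194 to 265 CPM with the substituted transgene, so this sum did not overlap between ATXN1[82Q] and the others. Nnat (177 ± 19.3 CPM in ATXN1[82Q]) and Vtn (107 ± 9.47 CPM), which other brain cells also express, made up most of that sum. The mean log2 level of all 11 genes, relative to wild type, was 0.645 to 1.04 in ATXN1[82Q], -0.377 to 0.596 in wild type and -0.112 to 0.804 with the substituted transgene, so by that measure ATXN1[82Q] and the substituted transgene overlapped. Among 24 markers of brainstem neurons the summed level was 25.8 to 44.8 CPM in wild type, 36.4 to 42.6 CPM with the substituted transgene and 34.4 to 110 CPM in ATXN1[82Q], where replicates 2 (74.6 CPM) and 5 (110 CPM) stood above all other libraries. In wild type 3 of these 24 markers were at 0 in every library, against 1 in each transgenic group. In ATXN1[82Q] against wild type all 10 microglial markers rose, as did 6 of 9 oligodendrocyte markers. Of 10 markers of astrocytes and Bergmann glia 5 rose and 2 fell, and 9 of 10 Purkinje and 8 of 10 granule cell markers fell.

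The members differed widely in level. Per kilobase of exon, the highest in wild type were Cfap36 (24.1 CPM per kb), Cfap20 (8.26 CPM per kb), Cfap97 (6.62 CPM per kb) and Ccdc39 (3.32 CPM per kb). Foxj1 stood at 2.44 ± 1.77 CPM per kb in wild type (SD, n = 5). The dynein heavy chain genes Dnah11 (2.41 CPM per kb) and Dnah6 (1.28 CPM per kb) were far above Dnah5 (0.135 CPM per kb), Dnah2 (0.126 CPM per kb) and Dnah9 (0.112 CPM per kb), which are core motors of beating cilia. At the bottom were Dnah7a (0.0265 CPM per kb), Dnah8 (0.0259 CPM per kb) and the spoke protein genes Rsph14 and Rsph6a. Those last 2, with Cfap58 and Tekt3, did not pass the count filter. Their raw counts were 1 to 24 for Rsph14, 0 to 5 for Rsph6a, 0 to 15 for Cfap58 and 0 to 15 for Tekt3.

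Against wild type, 28 of the 48 tested members rose in ATXN1[82Q] and none fell (edgeR quasi-likelihood test, Benjamini-Hochberg adjusted p under 0.05; 0 were lower even at an unadjusted p under 0.05). Over all 15843 genes tested 16.6% rose and 14.9% fell, 31.5% in all. The median log2 fold change was 0.835 over the tested members and 0.00685 over all tested genes. The genes that rose included Foxj1, 10 of 14 dynein chains of the outer and inner arms, and 9 of 16 Cfap genes. In 11 members every ATXN1[82Q] library lay above every wild-type library, against 9.36% of all genes tested, and 0 members showed the reverse, against 9.79%. Both Cfap221 and Dnaaf1 passed the count filter only through their ATXN1[82Q] libraries, so a higher level there was built into their being tested. Among the other 46 tested members 26 rose, 0 fell and 9 did not overlap. These levels are shares of the RNA of whole tissue. More ciliated cells, more RNA per ciliated cell, more bordering tissue and less RNA from other cells cannot be told apart. The count was 18 without wild-type replicate 3, the lowest of 15 fits that each left out 1 library, and 34 without wild-type replicate 5, the highest. Without ATXN1[82Q] replicates 2 and 5, which had the highest brainstem sums, it was 17. With the mean log2 level of the 10 tested brainstem markers (the brainstem mean below) as a covariate it was 12. Relative to wild type, that mean was -0.041 to 2.5 in ATXN1[82Q] libraries and -0.366 to 0.487 in wild-type libraries. The covariate thus ran partly with genotype, and the fit cannot fully tell them apart. The count was 26 among the 7 libraries with Ttr under 100 CPM, 10 among the 8 above, and 31 with Ttr as a covariate. The share of all genes called in each alternative fit is not given here. A change in calls over all genes therefore cannot be told from one in the members. In all 25 alternatives run, 7 of the 28 kept their call: Cfap46, Cfap57, Cfap221, Dnah1, Dnah2, Dnah5 and Dnali1. The ependymal sum, which in ATXN1[82Q] came mostly from Nnat and Vtn, moved with genotype as the members did. Its part in these rises was not tested.

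**Figure D1:**
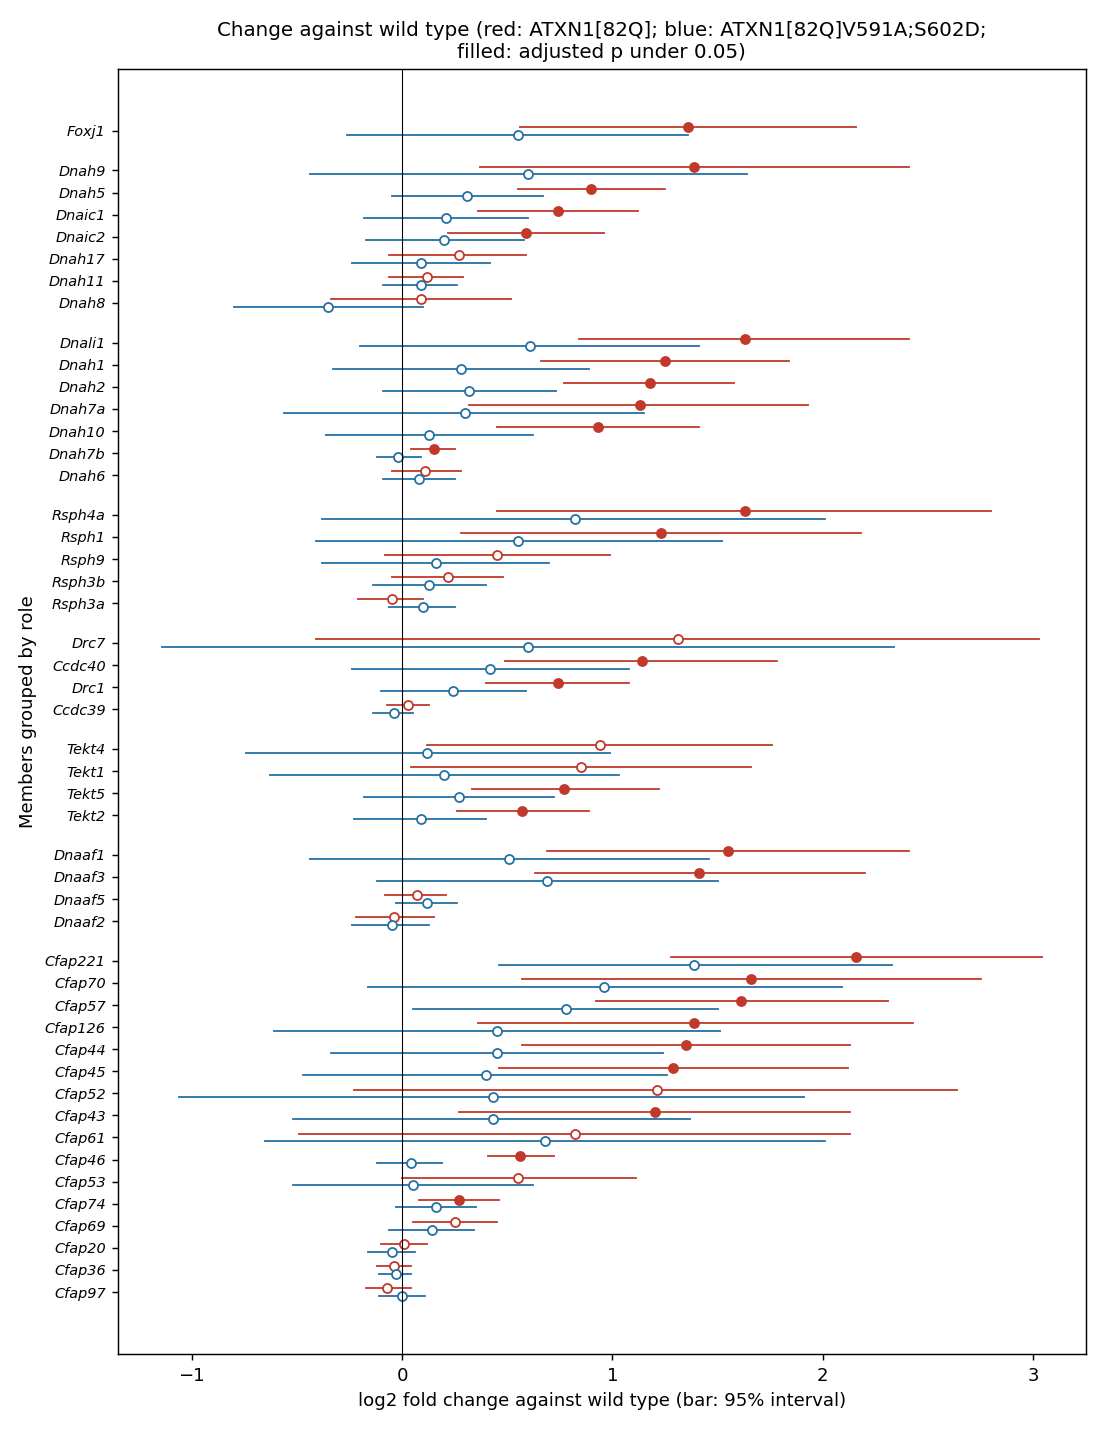
Log2 fold change of each tested member against wild type, grouped by role, for ATXN1[82Q] (red) and the substituted transgene (blue). Points are estimates from the edgeR fit, bars their 95% intervals, and filled points passed an adjusted p under 0.05. All 28 filled points are red and lie to the right of 0.

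Foxj1 (chromosome 11, 116330704 to 116335399, GRCm38, minus strand), the regulator, stood at 6.2, 3.41, 2.95, 5.04 and 14.4 CPM in wild-type replicates 1 to 5. In ATXN1[82Q] it stood at 10.6, 19.3, 9.87, 22.3 and 20.2 CPM, and with the substituted transgene at 5.22, 9.31, 8.7, 15.9 and 7.82 CPM. Wild-type replicate 5, a library with 3790 CPM of Ttr, was above ATXN1[82Q] replicates 1 and 3, so the groups overlapped. Foxj1 rose 2.57-fold in ATXN1[82Q] (log2 fold change 1.36, SE 0.379, edgeR adjusted p = 0.0114). The call held in each fit that left out 1 library, with log2 fold changes from 1.18 to 1.90. It was lost with the brainstem mean as a covariate (log2 fold change 0.83, adjusted p = 0.0861), without ATXN1[82Q] replicates 2 and 5 (1.15, adjusted p = 0.0691) and among the libraries with Ttr above 100 CPM (0.99, adjusted p = 0.0686). Among libraries with Ttr under 100 CPM, Foxj1 averaged 3.8 CPM in 3 wild-type, 10.2 CPM in 2 ATXN1[82Q] and 6.52 CPM in 2 substituted libraries. Among those above 100 CPM it averaged 10.3, 20.6 and 11.3 CPM in 2, 3 and 3 libraries of the same genotypes. Within either range the ATXN1[82Q] libraries were the highest.

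**Figure D2:**
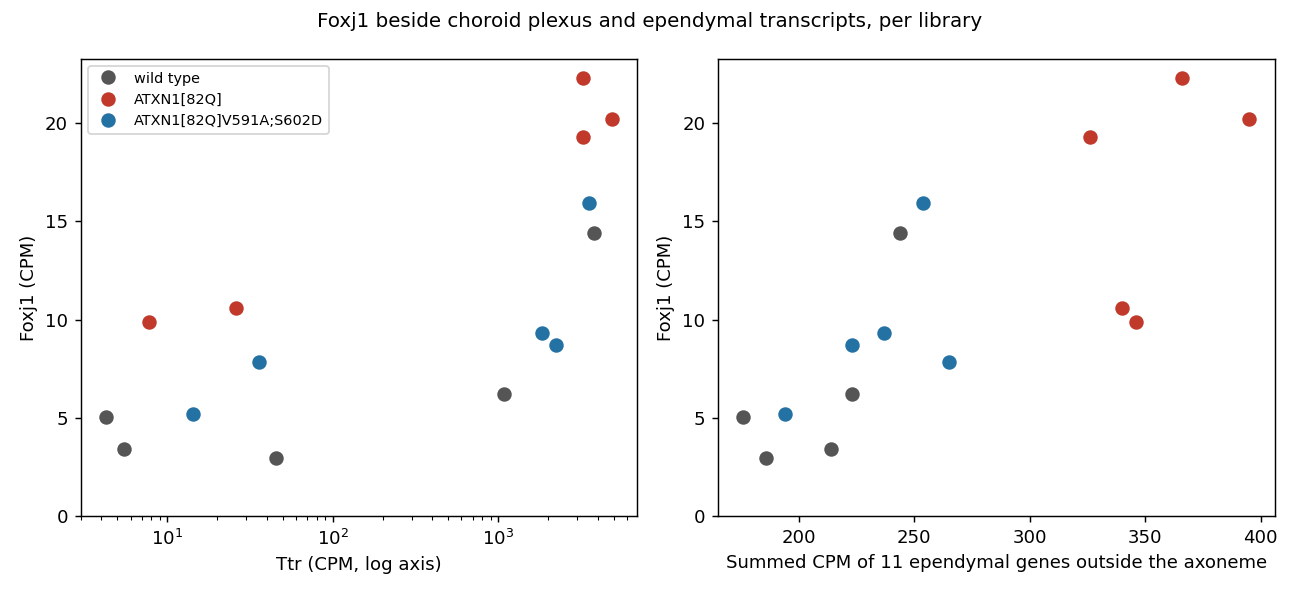
Foxj1 (CPM) in each of the 15 libraries against Ttr (left, log axis) and against the summed level of 11 ependymal genes outside the axoneme (right). Grey points are wild type, red ATXN1[82Q], blue the substituted transgene. Foxj1 is higher at high Ttr in each genotype, and the ATXN1[82Q] points lie at or beyond 326 CPM on the ependymal axis, to the right of all others. Nnat and Vtn, which other brain cells also express, make up most of that sum in ATXN1[82Q].

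Of 7 outer arm dynein chains, 4 rose in ATXN1[82Q]: Dnah5, Dnah9, Dnaic1 and Dnaic2. Dnah5 (chromosome 15, 28203752 to 28472052), an outer arm heavy chain whose loss causes primary ciliary dyskinesia, stood at 2.03, 2.04, 1.68, 2.34 and 2.49 CPM in wild type and at 3.85, 4.01, 3.59, 4.93 and 3.45 CPM in ATXN1[82Q]. With the substituted transgene it stood at 1.78, 2.22, 2.95, 3.6 and 2.6 CPM. Every ATXN1[82Q] library was above every wild-type library, while 1 substituted library reached the ATXN1[82Q] range. The rise was 1.87-fold (log2 fold change 0.90, SE 0.166, edgeR adjusted p = 5.63e-04). Dnah9 (chromosome 11, 65831282 to 66168551), the heavy chain that partners Dnah5 at the distal axoneme, stood at 2.44, 0.699, 0.677, 1.08 and 4 CPM in wild type and at 2.84, 4.99, 2.53, 7.37 and 5.73 CPM in ATXN1[82Q], where the groups overlapped. It rose 2.62-fold (edgeR adjusted p = 0.0365), a call lost without any of wild-type replicates 2, 3 and 4 or ATXN1[82Q] replicates 2, 4 and 5 (adjusted p up to 0.0986). The intermediate chain genes Dnaic1 (1.67-fold, adjusted p = 0.00493) and Dnaic2 (1.51-fold, adjusted p = 0.0156) rose less, and the Dnaic2 call was lost without ATXN1[82Q] replicate 4 (adjusted p = 0.051). Dnah11, an outer arm heavy chain of the proximal axoneme, did not pass: it stood at 31.2 to 38.8 CPM in wild type and 30.6 to 44.3 CPM in ATXN1[82Q]. Nor did Dnah17 (log2 fold change 0.27) or Dnah8 (0.09), heavy chains known mainly from sperm flagella.

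Of 7 inner arm chains, 6 rose. Dnah2 (chromosome 11, 69420809 to 69549110), a heavy chain of inner arm dynein f, stood at 1.81, 1.8, 1.3, 2.14 and 2.37 CPM in wild type and at 3.59, 3.99, 3.54, 5.51 and 4.71 CPM in ATXN1[82Q]. With the substituted transgene it stood at 1.51, 2.32, 3.03, 2.88 and 2.05 CPM. The ATXN1[82Q] libraries overlapped neither of the other groups. Dnah2 rose 2.26-fold against wild type (log2 fold change 1.18, SE 0.192, edgeR adjusted p = 1.8e-04). Its log2 fold change was 1.02 (adjusted p = 0.00834) among low-Ttr libraries, 1.17 (adjusted p = 0.00423) among high-Ttr libraries and 1.03 (adjusted p = 0.00195) with the brainstem mean as a covariate. Dnah1 (chromosome 14, 31260375 to 31323896), an inner arm heavy chain, stood at 1.56, 0.86, 0.975, 1.11 and 1.96 CPM in wild type and at 1.99, 2.86, 2.29, 4.76 and 3.52 CPM in ATXN1[82Q]. With the substituted transgene it stood at 1.04, 1.44, 1.57, 2.57 and 1.27 CPM. The lowest ATXN1[82Q] library was just above the highest wild-type library, and the rise was 2.38-fold (log2 fold change 1.25, SE 0.28, edgeR adjusted p = 0.00264). The other inner arm heavy chains that rose were Dnah10 (1.9-fold, adjusted p = 0.00487), Dnah7a (2.18-fold, adjusted p = 0.0328) and Dnah7b (1.11-fold, adjusted p = 0.0312). Dnali1 (chromosome 4, 125055338 to 125065703), a light chain of single-headed inner arms, stood at 1.71, 0.564, 0.65, 0.983 and 2.06 CPM in wild type and at 2.28, 4.06, 2.72, 5.63 and 3.84 CPM in ATXN1[82Q]. With the substituted transgene it stood at 0.742, 1.73, 2.17, 3.11 and 1.4 CPM, so 1 of those libraries lay within the ATXN1[82Q] range. Wild-type and ATXN1[82Q] libraries did not overlap, and Dnali1 rose 3.09-fold (log2 fold change 1.63, SE 0.373, adjusted p = 0.00311). Dnah6 stayed at 15.8 to 17.6 CPM in wild type and 15.9 to 21.5 CPM in ATXN1[82Q], and did not pass. The Dnah7a call was lost without any of wild-type replicates 2, 3 and 4 or ATXN1[82Q] replicates 4 and 5, and the Dnah7b call without any of wild-type replicates 1, 3 and 5 or ATXN1[82Q] replicates 1 and 3. Dnah7a shares 38.6% of its 50-base stretches with other genes, mainly Dnah7b, and Dnah7b shares 30%, mainly with Dnah7c, so reads may be divided unevenly among them and both values are uncertain.

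**Figure D3:**
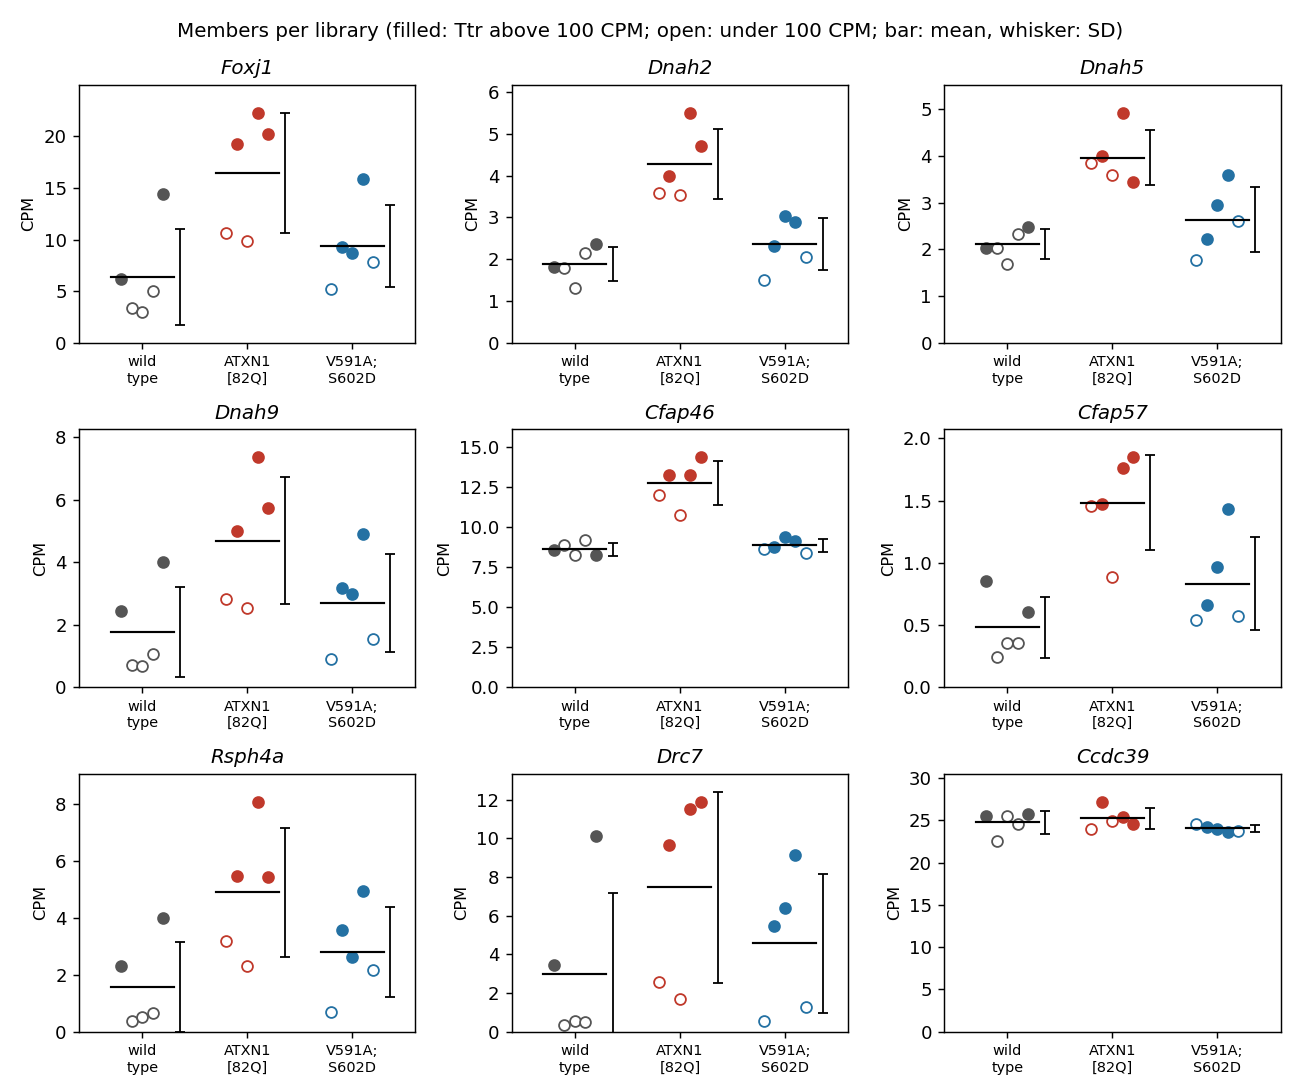
Level (CPM) of 9 members in each of the 5 libraries per genotype. Filled points have Ttr above 100 CPM and open points under 100 CPM, horizontal bars are means and whiskers SD. In Cfap46 and Dnah2 the ATXN1[82Q] libraries overlap neither other group, in Drc7 open and filled points separate within each genotype, and Ccdc39 lies between 22.5 and 27.2 CPM in all libraries.

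Among radial spoke genes, 2 of 5 tested rose. Rsph4a, a spoke head protein, stood at 2.31, 0.376, 0.515, 0.655 and 4 CPM in wild type and at 3.19, 5.46, 2.29, 8.07 and 5.44 CPM in ATXN1[82Q] (3.09-fold, edgeR adjusted p = 0.0343). Rsph1, another head protein, went from 2.6 ± 2.05 to 6.11 ± 2.49 CPM (SD, n = 5; 2.35-fold, adjusted p = 0.0463). Wild-type and ATXN1[82Q] libraries overlapped in both genes. The Rsph4a call was lost without any of wild-type replicates 2, 3 and 4 or ATXN1[82Q] replicates 2, 4 and 5, and the Rsph1 call without any of those, wild-type replicate 1 or substituted replicates 2, 3 and 5. Rsph9, the head partner of these proteins, did not pass (3.29 ± 1.5 to 4.51 ± 1.31 CPM, adjusted p = 0.189). Rsph3a and Rsph3b, near-identical copies that share 58.1% and 69.2% of their 50-base stretches with other genes, did not pass either, and their division of reads is uncertain.

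Of the nexin-dynein regulatory complex and the ruler that sets its spacing, Drc1 and Ccdc40 rose. Drc1, a scaffold of the complex, stood at 1.95 to 2.87 CPM in wild type and 3.06 to 4.69 CPM in ATXN1[82Q], with no overlap (1.67-fold, edgeR adjusted p = 0.00218). Ccdc40 rose 2.2-fold (adjusted p = 0.00902), from 0.623 to 2.79 CPM to 2.15 to 3.96 CPM, with overlap. Ccdc39, which forms the ruler together with Ccdc40, did not follow it: it stood at 22.5 to 25.7 CPM in wild type and 24 to 27.2 CPM in ATXN1[82Q] (log2 fold change 0.03, 95% interval -0.07 to 0.13). Exons of Ccdc39 overlap those of Ttc14 on the opposite strand over 16.9% of their length, and without a stated strand setting these reads cannot be told apart. Drc7, another subunit of the complex, ranged from 0.349 to 10.1 CPM in wild type and 1.72 to 11.9 CPM in ATXN1[82Q]. With a log2 fold change of 1.31 it missed the threshold (adjusted p = 0.239).

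Of 4 tested tektins, proteins that lie along the inner wall of the doublets, Tekt2 (1.49-fold, edgeR adjusted p = 0.00694) and Tekt5 (1.71-fold, adjusted p = 0.00976) rose. Tekt5 stood at 2.36, 2.13, 2.34, 2.2 and 4.92 CPM in ATXN1[82Q] and at 1.26 to 2.04 CPM in wild type. Without ATXN1[82Q] replicate 5 its log2 fold change was 0.47 in place of 0.77, still past the threshold, and its call was lost with the brainstem mean as a covariate (adjusted p = 0.136). Tekt1 (adjusted p = 0.102) and Tekt4 (adjusted p = 0.0761) did not pass. Tekt2 exons overlap an antisense gene over 20.8% of their length. Of the 4 assembly factors, which preassemble dynein arms in the cytoplasm, Dnaaf1 (2.93-fold, adjusted p = 0.00821) and Dnaaf3 (2.67-fold, adjusted p = 0.00813) rose. Dnaaf1 was tested only because of its ATXN1[82Q] libraries. Its call was lost among low-Ttr libraries (edgeR adjusted p = 0.0894). Both calls were lost among high-Ttr libraries (adjusted p = 0.0807 for Dnaaf1 and 0.127 for Dnaaf3). With the brainstem mean as a covariate both were lost too (adjusted p = 0.0653 and 0.0626). Dnaaf2 (log2 fold change -0.04) and Dnaaf5 (0.07) did not pass. Exons of Dnaaf1 overlap Taf1c on the opposite strand over 20.7%, those of Dnaaf2 overlap another gene over 32.7%, and those of Dnaaf3 and Dnaaf5 over 12.6% and 10.6%.

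The Cfap genes held the rise with the lowest adjusted p of any tested member. Cfap46 (chromosome 7, 139600951 to 139683817, minus strand), a component of the central pair apparatus, stood at 8.57, 8.92, 8.29, 9.2 and 8.26 CPM in wild type and at 12, 13.3, 10.8, 13.3 and 14.4 CPM in ATXN1[82Q]. With the substituted transgene it stood at 8.63, 8.75, 9.43, 9.17 and 8.42 CPM. The ATXN1[82Q] libraries lay above all 10 others, while wild-type and substituted libraries covered the same range. Cfap46 rose 1.48-fold (log2 fold change 0.56, SE 0.0724, edgeR adjusted p = 1.55e-05). Cfap221, also of the central pair, was 4.46-fold higher (log2 fold change 2.16, SE 0.417, adjusted p = 8.46e-04) at very low levels, and was tested only because of its ATXN1[82Q] libraries. It stood at 0.251, 0.188, 0.0271, 0.126 and 0.101 CPM in wild type, at 0.398, 0.465, 0.454, 1.06 and 0.767 CPM in ATXN1[82Q] and at 0.198, 0.463, 0.392, 0.518 and 0.286 CPM with the substituted transgene. ATXN1[82Q] lay above all wild-type libraries and overlapped the substituted libraries. Cfap57, which takes part in inner arm assembly, rose 3.06-fold (log2 fold change 1.61, SE 0.33, adjusted p = 0.00133). It stood at 0.854, 0.242, 0.352, 0.353 and 0.604 CPM in wild type, at 1.46, 1.47, 0.884, 1.76 and 1.85 CPM in ATXN1[82Q] and at 0.544, 0.658, 0.966, 1.43 and 0.571 CPM with the substituted transgene. Again the ATXN1[82Q] libraries overlapped the substituted but not the wild-type libraries. Cfap70 (3.15-fold, adjusted p = 0.0214), Cfap126 (2.62-fold, adjusted p = 0.0392), Cfap44 (2.55-fold, adjusted p = 0.00993), Cfap45 (2.45-fold, adjusted p = 0.0188), Cfap43 (2.3-fold, adjusted p = 0.0468) and Cfap74 (1.21-fold, adjusted p = 0.0302) rose with overlapping groups. Apart from that of Cfap44, these calls were each lost when certain single libraries were left out. For Cfap45 this was wild-type replicate 3. For Cfap70 it was any of wild-type replicates 2, 3 and 4 or ATXN1[82Q] replicate 4, and for Cfap74 any of wild-type replicates 1, 2 and 3 or ATXN1[82Q] replicates 1, 2 and 4. For Cfap126 and Cfap43 it was any of wild-type replicates 1 to 4 or ATXN1[82Q] replicates 2, 4 and 5, and for Cfap43 also substituted replicates 2 and 3. Cfap20, Cfap36 and Cfap97, the highest per kilobase, had log2 fold changes of 0.01, -0.04 and -0.07 and did not pass. Cfap52 (log2 fold change 1.21), Cfap61 (0.82), Cfap53 (0.55) and Cfap69 (0.25) did not pass either.

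**Figure D4:**
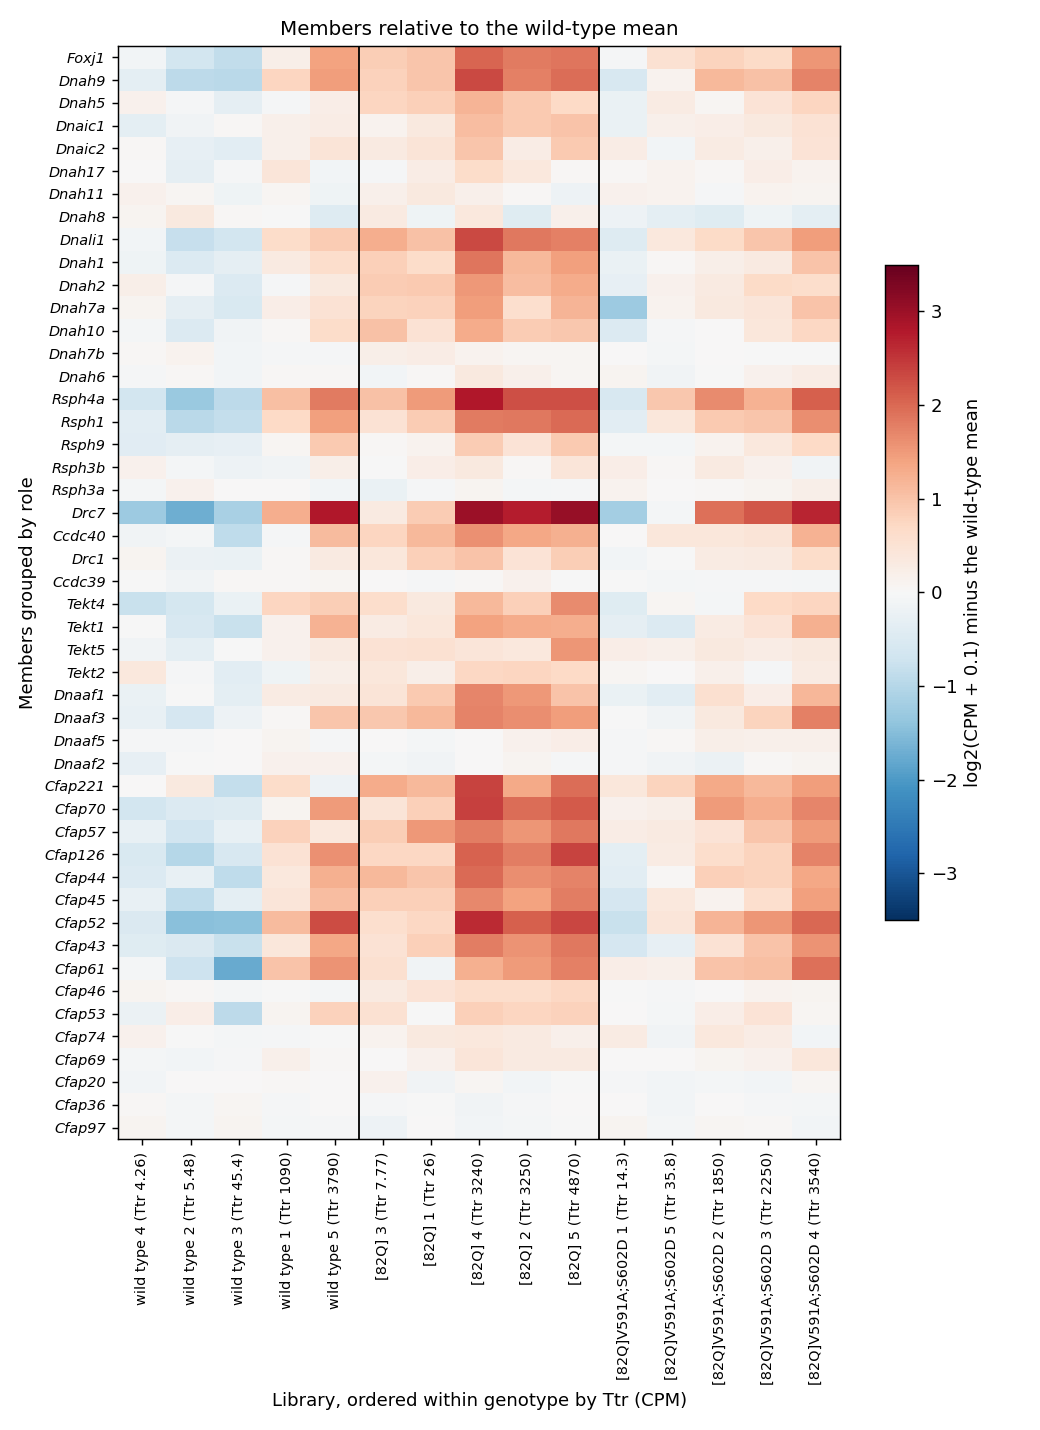
Each tested member (rows, grouped by role) in each library (columns, ordered within genotype by Ttr, whose CPM is in the label) as log2(CPM + 0.1) minus the wild-type mean. Red is above and blue below that mean. Rows such as Drc7, Cfap52 and Rsph4a change from left to right within each genotype, in rows such as Cfap46 and Dnah5 the ATXN1[82Q] columns stand above the wild-type columns, and Cfap20, Cfap36, Cfap97 and Ccdc39 stay near 0.

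The substituted transgene was compared with wild type in the same fit, and 0 of 48 members passed (edgeR; 2 had an unadjusted p under 0.05, both with higher levels). Over all genes tested 1.41% passed, 0.208% higher and 1.2% lower. DESeq2 also called 0 members. In 0 members did the groups not overlap, against 1.13% of all genes with the substituted libraries higher and 2.03% with them lower. The median log2 fold change was 0.227 over the tested members and 0.00588 over all tested genes. The intervals leave room for changes of some size. For Foxj1 the log2 fold change was 0.55 (95% interval -0.26 to 1.36), which reaches the ATXN1[82Q] estimate of 1.36. For Dnah9 it was 0.60 (-0.44 to 1.64), which includes the ATXN1[82Q] estimate of 1.39. For Cfap46 it was 0.04 (-0.12 to 0.19) and for Dnah2 0.32 (-0.09 to 0.73), and both intervals end below the ATXN1[82Q] estimates of 0.56 and 1.18. The 2 members at an unadjusted p under 0.05 were Cfap221 (log2 fold change 1.39, adjusted p = 0.175) and Cfap57 (0.78, adjusted p = 0.382).

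The comparison of ATXN1[82Q] with the substituted transgene, which tests the difference between the transgenes itself, called 10 of 48 members higher and none lower (edgeR; 0 lower at an unadjusted p under 0.05). Over all genes tested 28.1% were called, 13.5% higher and 14.6% lower. The members called thus made up a smaller share than all genes called in either direction, and a larger share than all genes called higher. The median log2 fold change was 0.562 over the tested members. The 10 were 5 inner arm chains (Dnah1, Dnah2, Dnah7b, Dnah10 and Dnali1), the outer arm chains Dnah5 and Dnaic1, and Drc1, Tekt2 and Cfap46. Cfap46 was 1.44-fold higher (log2 fold change 0.53, SE 0.0722, adjusted p = 7.48e-05) and Dnah2 1.81-fold higher (0.86, SE 0.188, adjusted p = 0.00302). Those 2 kept their call in all 25 alternatives. Dnah5 (1.51-fold, adjusted p = 0.0129) and Dnah10 (1.74-fold, adjusted p = 0.0144) kept it in each fit that left out 1 library. In 4 of 48 members, Cfap46, Dnah2, Dnah7b and Tekt5, every ATXN1[82Q] library was above every substituted library. That is about the same share as the 8.28% of all genes tested, so it does not set the members apart. In 0 members was it the reverse, against 9.61%. Tekt5 was not called (adjusted p = 0.078). Foxj1 did not pass either (1.76-fold, adjusted p = 0.11). The other 6 calls each depended on single libraries. The Dnah1 call was lost without ATXN1[82Q] replicate 4, the Tekt2 call without that library or substituted replicate 3, and the Dnah7b call without ATXN1[82Q] replicate 1 or 3 or substituted replicate 5. The Drc1 call was lost without any of ATXN1[82Q] replicates 1, 4 and 5 or substituted replicates 1 and 5. Those of Dnali1 and Dnaic1 were lost without any of ATXN1[82Q] replicates 2, 4 and 5 or substituted replicates 1, 2, 3 and 5. The count was 5 without ATXN1[82Q] replicate 4, 6 without substituted replicate 5 and 18 without substituted replicate 4. With Ttr as a covariate 28 members were called higher, Foxj1 among them (log2 fold change 0.78, adjusted p = 0.00619). With the brainstem mean as a covariate 4 were. For these alternative fits too, the share of all genes called is not given here, so the counts cannot be set against it. As against wild type, ependymal genes outside the axoneme moved alongside (7 of 11 higher in ATXN1[82Q]), and their part was not tested. The 2 comparisons of ATXN1[82Q] share its 5 libraries.

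Within genotypes, many members followed Ttr, the choroid plexus gene. With a mean for each genotype and log2 CPM of Ttr in the fit, 23 of 48 members rose with Ttr and none fell (edgeR adjusted p under 0.05; 1 lower at an unadjusted p under 0.05). Over all genes tested 5.66% passed, 3.97% rising and 1.69% falling. The largest coefficients, in log2 units for each doubling of Ttr, were those of Drc7 (0.39, adjusted p = 4.17e-08), Cfap52 (0.29, adjusted p = 2.37e-05), Cfap61 (0.22), Cfap70 (0.22), Rsph4a (0.22), Cfap126 (0.20), Dnah9 (0.20) and Rsph1 (0.19), and Foxj1 had 0.14 (adjusted p = 5.54e-04). Drc7 stood at 3.44, 0.349, 0.569, 0.504 and 10.1 CPM in wild-type replicates 1 to 5, at 2.58, 9.66, 1.72, 11.5 and 11.9 CPM in ATXN1[82Q] and at 0.544, 5.49, 6.42, 9.12 and 1.3 CPM with the substituted transgene. In each genotype its libraries with Ttr above 100 CPM all lay above those with Ttr under 100 CPM. The lowest coefficients were those of Dnah8 (-0.03), Dnah11 (-0.02), Dnah7b (-0.01) and Cfap97 (-0.00), none of which passed. Ependymal genes outside the axoneme rose with Ttr too (7 of 11), as did 22 of 23 choroid plexus genes and 4 of 10 tested brainstem genes. The coefficient compares libraries rich and poor in Ttr: 0 members passed among the low-Ttr libraries alone (edgeR; 4 at an unadjusted p under 0.05), 2 among the high-Ttr libraries alone, and 14 with the brainstem mean beside Ttr. The shares of all genes that passed in these last fits are not given here.

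Of the 28 that rose in ATXN1[82Q] against wild type, 16 also rose with Ttr. The other 12 did not pass for Ttr: Cfap46, Cfap74, Cfap221, Dnah2, Dnah5, Dnah7a, Dnah7b, Dnah10, Dnaic2, Drc1, Tekt2 and Tekt5. Missing the adjusted threshold does not set these apart: 34 of 48 members rose with Ttr at an unadjusted p under 0.05, among them Dnah2, Dnah10, Dnaic2 and Drc1. A further 7 rose with Ttr and did not pass for genotype: Drc7, Cfap52, Cfap61, Cfap69, Rsph9, Tekt1 and Tekt4. The remaining 13, among them Ccdc39, Cfap20, Cfap36, Dnah6 and Dnah11, passed in neither. With Ttr as a covariate Drc7 passed for genotype (log2 fold change 0.92, adjusted p = 0.00899), as did Cfap52 (0.85, adjusted p = 0.0456) and Tekt4 (0.69, adjusted p = 0.0404). Within the libraries with Ttr under 100 CPM, 33 of 48 members had both ATXN1[82Q] libraries above all 3 wild-type libraries, against 26.2% of all genes tested. Above 100 CPM, 30 of 48 had all 3 ATXN1[82Q] libraries above both wild-type libraries, against 20.4% of all genes tested. Both counts include Cfap221 and Dnaaf1, which were tested only because of their ATXN1[82Q] libraries.

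**Figure D5:**
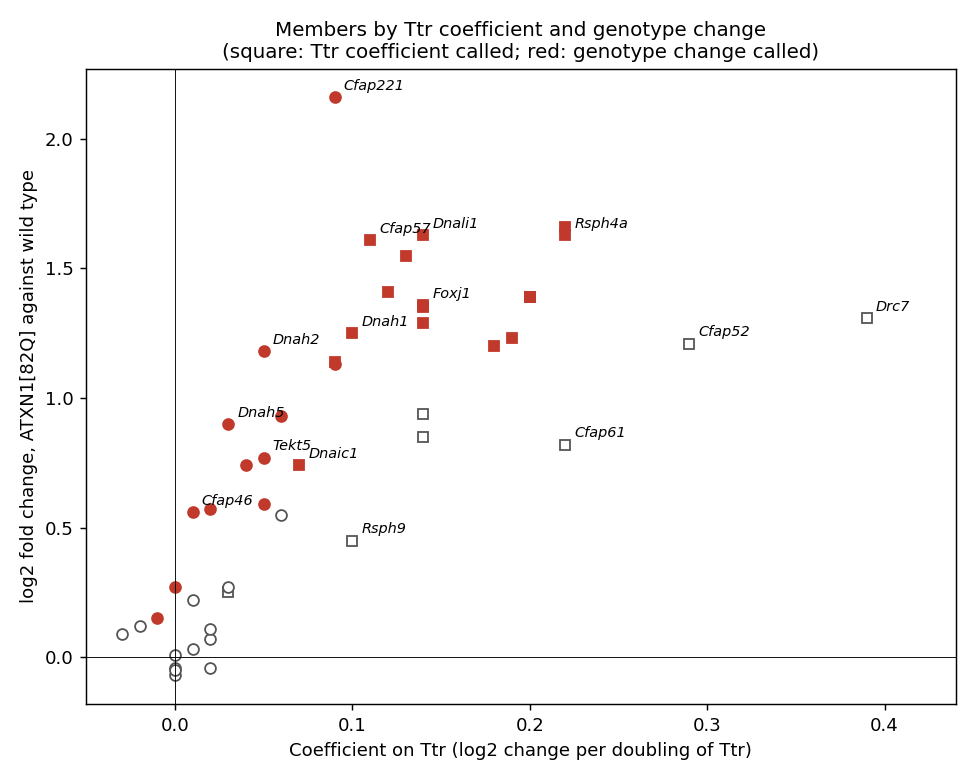
Each of the 48 tested members by its coefficient on Ttr (x, log2 change for each doubling of Ttr) and its log2 fold change in ATXN1[82Q] against wild type (y). Squares passed for Ttr and red symbols for genotype. Drc7 and Cfap52 lie far to the right without passing for genotype, while Dnah5 and Cfap46 lie near 0 on the x axis and passed for genotype.

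Other genes of the pathway were read from lists. Of 64 tested genes of the motile cilium outside the symbol rule, 36 rose in ATXN1[82Q] against wild type and 3 fell (edgeR; median log2 fold change 0.908), against 16.6% and 14.9% of all genes tested. Of the 64, 2 passed the count filter only through ATXN1[82Q] libraries. The largest rises were those of Iqca (4.98-fold, adjusted p = 0.0019), Sntn, which encodes a protein of the ciliary tip (3.91-fold, adjusted p = 0.00759), Tmem212 (3.54-fold, adjusted p = 0.00848) and Dynlrb2, a dynein light chain (3.54-fold, adjusted p = 0.0247). The Dynlrb2 call was lost without any of wild-type replicates 2, 3 and 4 or ATXN1[82Q] replicates 4 and 5. Ccno, a cyclin of multiciliated cell precursors, fell from 0.681 ± 0.107 to 0.209 ± 0.0776 CPM (SD, n = 5; adjusted p = 5.09e-04). Spag1, an assembly factor expressed at 53.2 ± 4.57 CPM in wild type, fell to 40.7 ± 2.78 CPM (adjusted p = 2e-04). Gas8, a regulatory complex subunit, fell 1.11-fold (adjusted p = 0.0497), a call lost in 12 of the 15 fits that left out 1 library, among them those without wild-type replicate 1 or ATXN1[82Q] replicate 5. With the substituted transgene 0 of these 64 passed against wild type (edgeR; 2 with positive and 1 with negative change had an unadjusted p under 0.05), and between the transgenes 7 were higher and 2 lower in ATXN1[82Q], where 13.5% and 14.6% of all genes were.

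Of 27 intraflagellar transport genes, which build every kind of cilium, 2 rose and 5 fell in ATXN1[82Q] (median log2 fold change 0.0241), against 16.6% and 14.9% of all genes tested. Kifap3, the adaptor of the kinesin that carries the trains, fell from 263 ± 5.56 to 229 ± 5.4 CPM (SD, n = 5; edgeR adjusted p = 2.76e-05), and Dync2li1, a chain of the returning dynein, rose 1.21-fold (adjusted p = 0.00425). Of 36 genes of the primary cilium and its transition zone, 2 rose, among them Mks1 (1.33-fold, adjusted p = 0.00853), and 3 fell, Inpp5e (1.23-fold, adjusted p = 2.46e-04), Arl3 (1.19-fold, adjusted p = 1.07e-05) and Sstr3 (1.19-fold, adjusted p = 0.0233). The Sstr3 call was lost without any of wild-type replicates 3 and 5 or ATXN1[82Q] replicates 2, 3 and 4. With the substituted transgene, 0 intraflagellar transport genes and 1 primary cilium gene passed against wild type, against 1.41% of all genes. This was Arl3, lower with log2 fold change -0.13 (edgeR adjusted p = 0.0346). Its call was kept in 7 of 15 fits that left out 1 library. Between the transgenes, 1 intraflagellar transport gene was higher in ATXN1[82Q] and 4 were lower. Of the primary cilium genes 2 were higher and 4 lower, where 13.5% and 14.6% of all genes were. Of the primary cilium genes 1 rose and 1 fell with Ttr, and 0 intraflagellar transport genes passed for it (edgeR; 3 with positive and 4 with negative coefficients had an unadjusted p under 0.05).

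RFX factors bind the promoters of ciliary genes together with FOXJ1. RefSeq promoter windows (GRCm38.p6, from 250 bases before to 50 after the start site) were matched for 46 of the 52 members. The letters GTTGCC, a core of the RFX motif, were found on either strand in 16 of these 46 members (34.8%) and in 3821 of all 27025 genes in the table (14.1%). In the last 30 bases before the start site they were found in 8 of 46 members (17.4%) and in 1.67% of all genes. Of these 8, Dnaic2, Dnah10, Drc1, Tekt2, Cfap44 and Cfap46 rose in ATXN1[82Q], while Tekt1 and Dnaaf2 did not pass. For the 6 that rose, 45 bases are shown to give the letters and their surroundings, on the gene's own strand with GTTGCC or its reverse complement GGCAAC in capitals. Each stretch ends before the RefSeq start or, where the GENCODE gene starts earlier, before that, so the place of the capitals is given from the RefSeq start.
Dnaic2 (chr11:114727363-114727407, plus strand, -26 to -21): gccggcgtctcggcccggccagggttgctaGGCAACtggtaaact
Dnah10 (chr5:124725040-124725084, plus strand, -20 to -15): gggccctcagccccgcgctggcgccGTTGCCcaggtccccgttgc
Drc1 (chr5:30281343-30281387, plus strand, -11 to -6): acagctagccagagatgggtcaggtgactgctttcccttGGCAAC
Tekt2 (chr4:126325689-126325733, minus strand, -22 to -17): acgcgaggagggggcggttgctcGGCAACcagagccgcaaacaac
Cfap44 (chr16:44394751-44394795, plus strand, -19 to -14): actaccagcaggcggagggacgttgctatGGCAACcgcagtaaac
Cfap46 (chr7:139683818-139683862, minus strand, -9 to -4): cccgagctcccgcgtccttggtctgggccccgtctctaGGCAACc
In Dnaic2, Tekt2 and Cfap44 the letters gttgc stand a few bases ahead of GGCAAC, which makes an inverted pair. This pattern was searched after the stretches had been seen, and any of its matches also holds the shorter letters. GTTGC, then 2 bases of any kind, then GGCAAC, on either strand, was found in 3 of 46 members (6.52%; Dnaic2, Tekt2 and Rsph3b) and in 0.163% of all genes. With 3 bases between, it was found in 1 member, Cfap44 (2.17%), and in 0.174% of all genes. The full X-box motif was found in 0 of 46 members and 0.529% of all genes. The forkhead letters TGTTTAC were found on either strand in 4 of 46 members (8.7%) and 4.05% of all genes. Of the 24 matched members that rose in ATXN1[82Q], 9 held GTTGCC in the window (37.5%) and 6 in the last 30 bases (25%). Among all 46 matched members these shares were 34.8% and 17.4%. GTTGCC was found in 3 of the 19 matched members that rose with Ttr (15.8%) and in 12 of the 23 other matched and tested members (52.2%). A match is a description of the letters in this window and not of binding.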

How the data were processed

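Cerebellar RNA of 15 libraries was studied. Per the labels' protocols, 10 ng of total RNA per library was primed at poly(A) tails and at random, and inserts were 400 bp long. Per the submitters' processing notes, the authors named STAR 2.5.3a, HTSeq, DESeq2 and mm10, and the deposited values are raw counts of reads per gene symbol. Strand, counting mode and annotation release were not given in the sources used here.

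Members were found by symbol and groups by the genotype label. All 15 libraries entered 1 fit of the edgeR 4.0.16 quasi-likelihood test (R 4.3.3), with a mean per genotype, TMM normalisation and a filterByExpr minimum of 10 counts. A gene was called below an adjusted p of 0.05 (Benjamini-Hochberg) over 15843 genes, for 3 genotype comparisons and for the coefficient of log2 CPM of Ttr. Any adjusted p in the text comes from this test unless another tool is named. Intervals are 95%, with 17 degrees of freedom as in the test, and log2 CPM used a prior count of 2. Amplified reads were not collapsed by molecular identifiers, so error estimates cover counting and library spread only. The 5 rows of unassigned reads were left out: reads with no gene made up 16.8% to 18.2%, those with several candidate genes 1.18% to 1.25%, and those with several alignments 12.8% to 14.6%. The model was tested on simulated counts. These held no variation in bordering tissue, so that test does not cover the spread seen among the members. DESeq2 1.42.0 and other filters, covariates and subsets of libraries served as alternatives. Within genotypes each pair of libraries differed beyond counting noise (chi-square per degree of freedom 5.7 or more), so none was treated as the same library deposited again. This does not tell technical from biological replicates.

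Exon lengths and positions came from GENCODE M21 (GRCm38) and promoters from RefSeq (GRCm38.p6). Exon overlap and shared 50-base stretches were computed from that annotation. Figures were drawn with matplotlib 3.10.9.

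The members and lists were chosen with earlier results of these data known. The rule for named genes took 20 fixed members, the largest changes of each comparison up to 8 per direction, the 8 highest and 4 lowest Ttr coefficients, and up to 4 called genes per direction of each pathway list. Other members were named after their values were seen, so that all 52 are accounted for.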

Additional observations from a re-analysis of the deposited data

Results flagged for a closer look

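A library was set apart where its distance to the nearest of the other 4 libraries of its genotype, divided by the range of all 5, passed Dixon's limit of 0.71. This held for 20 of 249 groups over 83 genes, and chance marks about 1 group in 20.

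Wild-type replicate 5, with 3790 CPM of Ttr, was the high library for 6 genes. Foxj1 stood at 14.4 CPM against 2.95 to 6.2 CPM in the other wild-type libraries. Ccdc40 stood at 2.79 against 0.623 to 1.21 CPM, Cfap70 at 1.23 against 0.202 to 0.402 CPM and Dnaaf3 at 1.36 against 0.403 to 0.678 CPM. Rsph9 stood at 5.89 against 2.34 to 3.27 CPM and the ependymal gene Krt15 at 0.529 against 0.0756 to 0.151 CPM.

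Substituted replicate 4, with the highest Ttr of its genotype (3540 CPM), was the high library for 4 genes. Ccdc40 stood at 3.03 against 1.26 to 1.72 CPM, Sntn at 1.06 against 0.219 to 0.421 CPM, Gm973 at 3.81 against 1.58 to 1.91 CPM and Tm4sf1 at 12.5 against 8.96 to 9.74 CPM.

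ATXN1[82Q] replicate 5 was high for Tekt5 (4.92 against 2.13 to 2.36 CPM) and low for Gas8 (19 against 22.5 to 23.4 CPM) and Spag1 (35.8 against 41.1 to 42.4 CPM). ATXN1[82Q] replicate 4 was high for Tmem212 (4.76 against 2.08 to 2.79 CPM). Wild-type replicate 4 was low for Cfap20 (34.3 against 37.2 to 37.8 CPM) and high for Cfap74 (15.4 against 13.1 to 13.6 CPM). Wild-type replicate 3 was high for Gas8 (25.7 against 24 to 24.5 CPM) and wild-type replicate 2 for Ttc21b (28.6 against 25.3 to 26.1 CPM). Substituted replicate 2 was low for Dnah11 (33.9 against 37.4 to 38.5 CPM) and substituted replicate 5 for Dnah7b (22.4 against 23.2 to 23.4 CPM).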

How the results depend on the processing

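Member calls in ATXN1[82Q] against wild type, 28 as reported, were 25 to 31 with DESeq2, RLE scaling, no count filter, 2 genotypes only, Ttr as a covariate, low-Ttr libraries only or the replicate block. They were 12 with the brainstem mean as a covariate, 17 without ATXN1[82Q] replicates 2 and 5, 10 in high-Ttr libraries only, and 18 to 34 with 1 library left out. Calls between the transgenes, 10 as reported, were 28 with Ttr as a covariate, 4 with the brainstem mean, 5 without ATXN1[82Q] replicates 2 and 5, and 5 to 18 with 1 library left out. The substituted transgene against wild type gave 0 calls under each alternative. The 23 calls for Ttr became 14 with the brainstem mean beside Ttr, 0 in low-Ttr and 2 in high-Ttr libraries alone, and 20 to 26 with 1 library left out. None of these counts is set beside the share of all genes called in the same fit. In low-Ttr libraries alone the coefficients of Cfap61 (-0.67) and Dnah9 (-0.01) changed sign. The causes of these differences were not tested, and the subsets also hold fewer libraries. The brainstem covariate, the high-Ttr subset for genotype and the removal of ATXN1[82Q] replicates 2 and 5 were chosen after seeing the data.

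With the replicate block the counts were 25, 0 and 10 for the 3 genotype comparisons and 19 for Ttr. Libraries that share a number were not treated as pairs in the main fit. The correlation of their deviations passed 0.1 in 4 of 15 pairs (median -0.109). It was 0.568 for replicate 5 of wild type and ATXN1[82Q] and 0.495 for replicate 1 of the transgenes. These values cannot exclude a shared batch, since differences in bordering tissue, as in Ttr, also enter the deviations. Low counts limited Cfap221 (1 to 44 counts per library) and Dnaaf1 (4 to 32).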
